A study of Mus musculus with 14 samples.

Results

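The genes followed here are 9 members of the p53 and RB pathways, namely Trp53, Mdm2, Mdm4, Cdkn1a, Rb1, Cdk4, Cdk6, Ccnd1 and Ccne1, and the quantity is their DNA copy level in single cells. Each gene was taken as the genome bin that holds its midpoint (mm10) with the neighbouring bin on each side. The mean deposited coverage of a cell over this window was divided by the median of that cell's chromosomes 1 to 19, which gives a window ratio of 1 where a window stands at the typical autosomal level of its cell. The 9 windows belong to 4376 windows tested, in 648 cells of 14 samples. Deposited values stop at a repeated top value, which was 10 in 621 cells, above 10 in 26 cells (25 of them DP) and below 10 in 1 cell. No value in the 25 bins of the 9 windows stood at the top value of its cell.

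Cells were sorted on tumor and host markers, so the classes are sort gates. The class labelled CTC (circulating tumor cells, 43 cells in 5 samples), the class DP (450 cells in 9 samples) and WBC (white blood cells, 46 cells in 6 samples) came from blood or lung of female C57BL/6J mice of 6 to 8 weeks that had received fluorescently labelled B16F10 cells, a melanoma line of the same strain. The control samples, 1 of each kind, were 22 cells of genotype B16F10, called the culture here although their label also reads CTC, and 18 CDP, 24 Duplike, 24 PltLike and 21 WBC labelled as naive female C57BL/6J of 6 to 8 weeks. The labels do not spell out DP, CDP, Duplike or PltLike, and do not say whether a sample is 1 mouse, so p-values measure the spread between these samples.

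As background, p53 is a transcription factor that DNA damage and oncogenic stress switch on, and it halts the cell cycle or starts cell death. Mdm2 is the ubiquitin ligase that degrades p53, Mdm4 is its relative that holds back p53 activity, and Cdkn1a encodes p21, a target of p53 that inhibits cyclin-dependent kinases. Rb1 encodes the retinoblastoma protein, which keeps E2F factors silent until Cdk4 or Cdk6 with D cyclins such as Ccnd1, and then Cdk2 with E cyclins such as Ccne1, phosphorylate it. Melanoma commonly escapes both brakes. Copy level is a property of DNA, and nothing about RNA or protein was measured here.

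The copy scale of the cells sets how the ratios read. The autosomal median of the deposited values was 3.72 in CTC and 3.75 in the culture, against 1.82 in WBC and 1.83 in naive WBC (medians of cells). A window ratio below 1 in CTC is therefore not a lower deposited value than in WBC. Mdm2 averaged 2.61 deposited units in CTC and 1.76 in WBC while its ratio was lower in CTC. The table holds no read numbers, so depth is unknown. The bin-to-bin noise, the median absolute log2 step between neighbouring autosomal bins, was 0.14 to 0.28 over all cells, with medians of 0.16 in CTC, 0.18 in DP, 0.17 in WBC, 0.20 in Duplike and 0.21 in PltLike. The median log2 level of chromosome 6 was 0.56 in CTC and 0.55 in the culture, against -0.03 in WBC and -0.01 in naive WBC, and that of X was -1.2 in CTC and -1.31 in the culture, against 0.012 in WBC and -0.014 in naive WBC. The libraries labelled CDP, Duplike and PltLike stood apart from naive WBC despite their naive label, with 0.43, 0.43 and 0.51 on chromosome 6 and -0.72, -0.86 and -1.18 on X.

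The windows differ in what else they hold. Trp53 lies in chr11:68929067-70487782 with 86 protein-coding genes, a density above that of 99.8% of tested windows. Mdm2 (chr10:117148384-118745380) and Cdk4 (chr10:126209222-127791840) share chromosome 10 with 9.37 Mb between their midpoints. Ccne1 (chr7:37573870-39319314) and Ccnd1 (chr7:144316025-145441459) lie 107 Mb apart on chromosome 7, and Ccnd1 has only 2 bins because it sits at the chromosome's end. Cdk6 (chr5:1-4154458) also has 2 bins, since its bin is the first of chromosome 5. The others are Mdm4 (chr1:132002277-133541948), whose body crosses a bin edge, Cdkn1a (chr17:28092952-29663708) and Rb1 (chr14:72620030-74276839).

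A window of 1.57 Mb does not resolve a promoter, and the sequence that ties 2 of the pathway's members is shown for orientation. The RefSeq promoter table (GRCm38.p6), which holds 250 bases before and 50 bases after each start, gave 9 promoters of these genes. Mdm4 and Cdkn1a had more than 1 promoter there, and Rb1 and Ccnd1 had none. The upstream start of Cdkn1a, at chr17:29090729-29091028 on the plus strand, holds a p53-type motif, spelled CATG, then any 6 bases, then CATG, which reads the same on both strands. Capitals mark the match.
Cdkn1a: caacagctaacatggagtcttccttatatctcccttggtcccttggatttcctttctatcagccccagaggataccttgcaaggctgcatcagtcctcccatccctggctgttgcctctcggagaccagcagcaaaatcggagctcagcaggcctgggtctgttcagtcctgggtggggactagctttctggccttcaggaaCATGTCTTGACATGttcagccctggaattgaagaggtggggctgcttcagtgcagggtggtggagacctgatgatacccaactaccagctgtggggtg
The match spans chr17:29090931-29090944, 35 bases before the upstream start and 2825 bases before the downstream start of Cdkn1a in the same table. The motif occurs in 0.712% of the 32851 promoters (234), and in 1 of the 9 promoters of members. Rb1 and Ccnd1 could not be searched. A match describes letters only.

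The first comparison asks where the pathway's copy levels in circulating tumor cells depart from those of white blood cells of the same samples. Cdkn1a, Mdm4 and Cdk6 were higher in CTC, Mdm2, Cdk4 and Rb1 were lower, and Trp53, Ccnd1 and Ccne1 did not pass the test. The samples are those with at least 3 cells of each class, and class means of log2 ratios were tested over 5 samples with limma, with the sample as a block and Benjamini-Hochberg adjustment over 4376 windows at 5%. So 6 of 9 members were called (3 higher and 3 lower), where 54.4% of all windows were called, 22.0% higher and 32.4% lower. The members' share is close to that of all windows. Their median difference was -0.0078, against -0.02 over all windows.

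**Figure D1:**
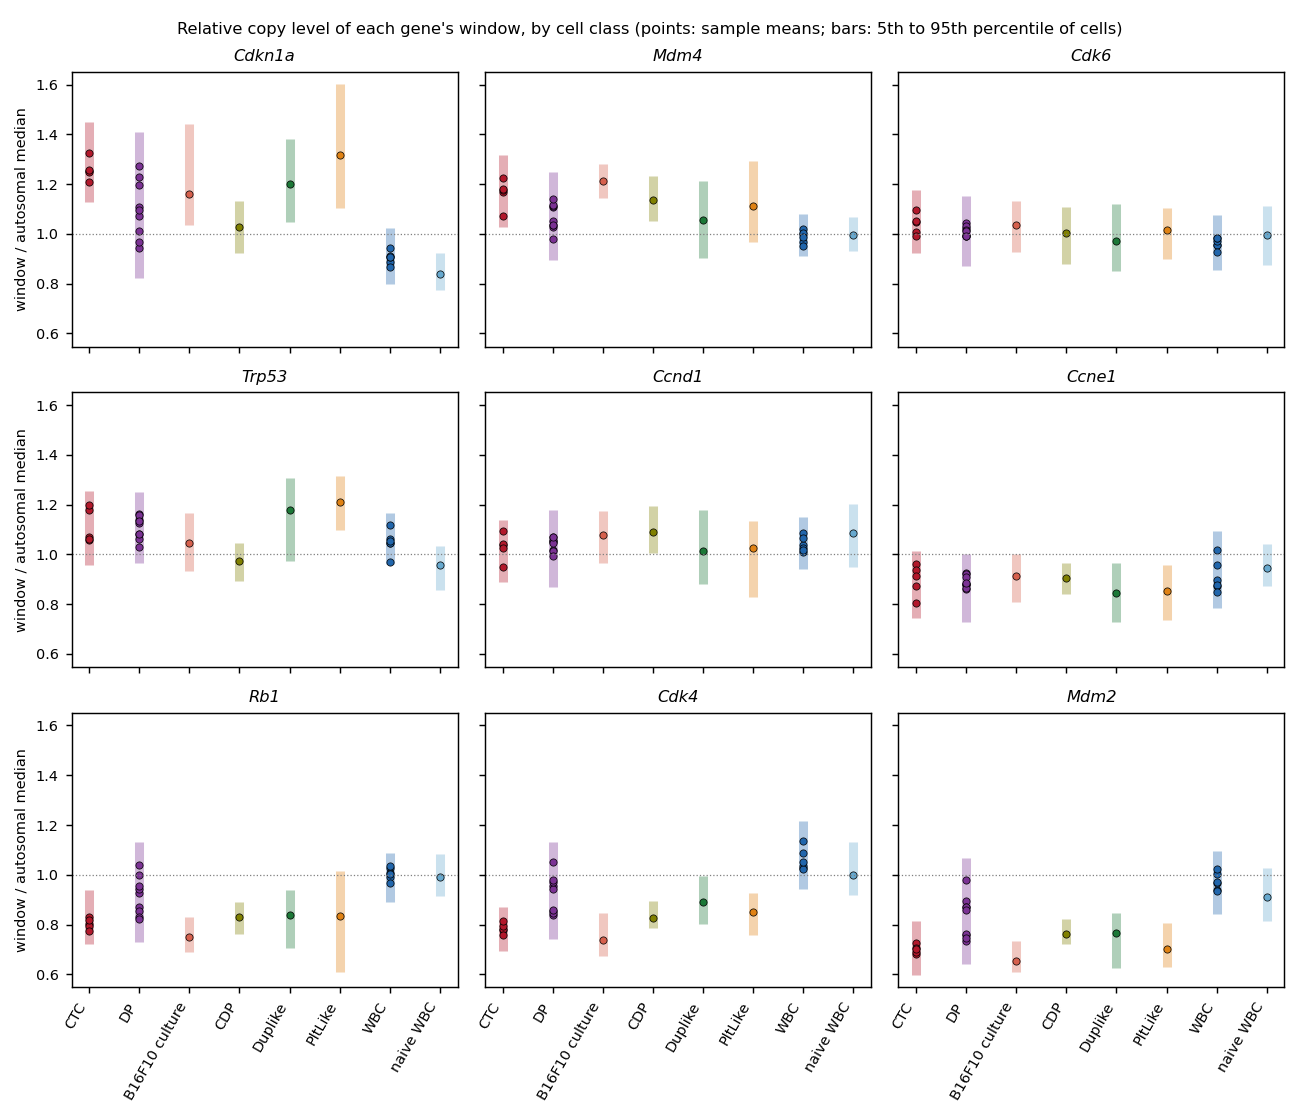
Window ratio (vertical axis, a window's coverage over the cell's autosomal median) of the 9 genes by cell class; points are sample means and bars the 5th to 95th percentile of cells. Sample means of Mdm2, Cdk4 and Rb1 in CTC and in the culture all lie below those of WBC, those of Cdkn1a lie above, and Ccnd1 and Ccne1 overlap.

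Among the regulators of p53, Mdm2 had mean ratios of 0.680, 0.724, 0.690, 0.704 and 0.700 in CTC of C1L, C1N, C1R, C2R and C3R, against 0.940, 0.935, 1.005, 0.967 and 0.971 in WBC of the same samples. The lowest WBC sample stood above the highest CTC sample. The log2 difference was -0.46 ± 0.05 (SE, 5 samples, limma adjusted p = 3.33e-06), a ratio 0.725 times that of WBC, and it was negative in 5 of 5 samples. Mdm4 had 1.07, 1.22, 1.17, 1.18 and 1.18 in CTC, against 1.02, 1.00, 0.968, 0.987 and 0.950 in WBC. Its groups did not overlap either, with C1L the lowest CTC sample (3 cells) and the highest WBC sample among the 5. The difference was 0.24 ± 0.04 (limma adjusted p = 0.000201). The ligase and its relative thus departed from the WBC level in opposite directions.

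Trp53 itself did not pass. Its ratios were 1.18, 1.07, 1.06, 1.06 and 1.20 in CTC, against 1.06, 1.04, 1.04, 1.05 and 1.12 in WBC, and the groups overlapped. The difference of 0.06 ± 0.03 was positive in 5 of 5 samples (limma adjusted p = 0.0856). The window of Trp53 straddles a step in the CTC profile. The bin before the gene averaged 1.28 in CTC and 1.10 in WBC, the gene's own bin 0.969 in CTC and 0.982 in WBC, and the bin after it 1.01 in CTC and 1.08 in WBC. With the gene's bin alone the difference was -0.0093 (limma adjusted p = 0.827), and with blood cells alone it was 0.11 and passed (limma adjusted p = 0.00517). It also passed, at 0.17, with the autosomal mean as the divisor (limma adjusted p = 0.000254).

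Cdkn1a, the p53 target and kinase inhibitor, had 1.33, 1.21, 1.25, 1.25 and 1.26 in CTC, against 0.887, 0.908, 0.945, 0.866 and 0.907 in WBC. All CTC samples stood well above all WBC samples. The difference was 0.48 ± 0.06 (limma adjusted p = 7.85e-06), 1.40 times the WBC ratio. In cells, 26 of 43 CTC stood above the highest of all 67 WBC, naive ones included.

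On the RB side, Rb1 had 0.803, 0.829, 0.795, 0.775 and 0.817 in CTC, against 1.03, 0.991, 1.01, 1.00 and 0.967 in WBC. The difference was -0.32 ± 0.04 (limma adjusted p = 1.34e-05), with no overlap. Its kinase Cdk4 had 0.779, 0.784, 0.792, 0.757 and 0.814 in CTC, against 1.03, 1.03, 1.09, 1.05 and 1.14 in WBC. The difference was -0.44 ± 0.04 (limma adjusted p = 1.69e-06), again with no overlap. An inhibitor of the cycle and the kinase that acts on it were thus both at a low ratio. In cells, 40 of 43 CTC at Mdm2, 39 at Cdk4 and 38 at Rb1 stood below the lowest of the 67 WBC.

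The other kinase, Cdk6, was called higher with a small difference. Its ratios were 1.05, 1.10, 1.05, 1.01 and 0.991 in CTC, against 0.955, 0.954, 0.973, 0.984 and 0.929 in WBC, a difference of 0.11 ± 0.03 (limma adjusted p = 0.00231). The groups did not overlap, but the 2 samples with enough CTC and WBC of lung gave -0.05 (limma adjusted p = 0.471), and less noisy cells (3 samples) gave 0.04 (limma adjusted p = 0.474), so the call was lost in both. The cyclins stood near the WBC level. Ccnd1 averaged 1.03 ± 0.05 in CTC (SD, 5 samples) and 1.04 ± 0.03 in WBC (SD, 6 samples), and Ccne1 0.897 ± 0.061 in CTC and 0.911 ± 0.063 in WBC. Their log2 differences were -0.02 ± 0.04 (limma adjusted p = 0.642) and -0.0078 ± 0.042 (limma adjusted p = 0.888). Both changed sign, to 0.09 and 0.10, when the autosomal mean replaced the median as the divisor, and then passed (limma adjusted p = 0.038 and 0.0481), so that 9 of 9 members were called with that divisor.

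That change of divisor bears on every difference. It moved the median CTC minus WBC difference of all windows by 0.11, and with it the split of calls to 2213 higher and 1093 lower, against 962 higher and 1419 lower with the autosomal median. For DP minus WBC the split moved to 1993 higher and 916 lower, against 714 and 1160. Relative to the median of all windows, which the divisor cannot alter, the CTC minus WBC differences were 0.51 for Cdkn1a, 0.26 for Mdm4, 0.14 for Cdk6, 0.08 for Trp53, 0.013 for Ccne1, 0.00022 for Ccnd1, -0.29 for Rb1, -0.42 for Cdk4 and -0.44 for Mdm2.

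**Figure D2:**
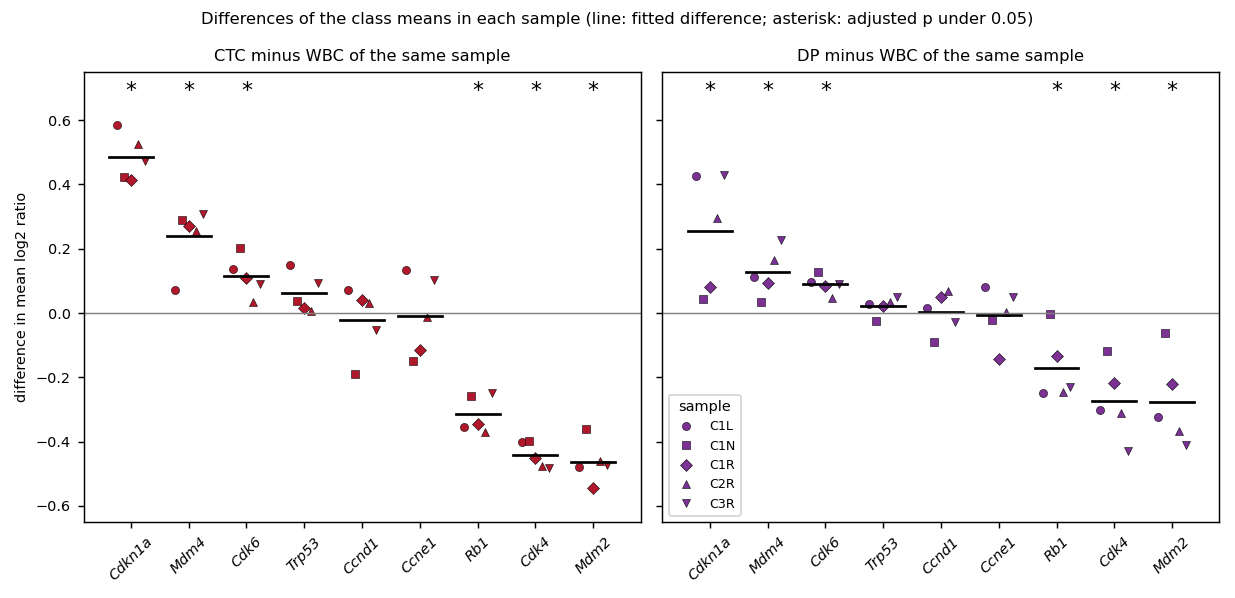
Difference in mean log2 ratio (vertical axis) of CTC (left) and DP (right) from WBC of the same sample at each gene; symbols are the 5 samples, lines the fitted difference and asterisks an adjusted p under 0.05. CTC points of Cdkn1a lie between 0.41 and 0.59 and those of Mdm2 between -0.55 and -0.36, while DP points run from near the CTC values towards 0.

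The next question is whether a gene stands apart from its surroundings or shares the level of a long stretch. The local difference subtracts the median log2 ratio of the 20 bins on each side of the window. In CTC minus WBC, 2 of 9 members were called in it (1 higher and 1 lower), where 28.4% of all windows were called, 13.1% higher and 15.3% lower. They were Cdkn1a at 0.39 ± 0.04 (limma adjusted p = 1.26e-05) and Trp53 at -0.16 ± 0.03 (limma adjusted p = 0.000358). The other 7 lay between -0.07 and 0.06.

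Cdkn1a lay in a short raised stretch. Consecutive called windows covered chr17:26522473-32793191, 6.27 Mb in 11 windows, and the median of the other 152 tested windows of chromosome 17 was 0.06. The Cdkn1a window exceeded 98.7% of those. The gene was not at the peak of the stretch, however. Its own bin stood at 0.51 in CTC minus WBC, while single bins at -1.79, 2.38 and 2.90 Mb from the gene's midpoint stood at 0.76, 0.93 and 0.75, and a bin at -1.26 Mb stood at 0.08. The same bins stood at 0.84, 0.84, 0.69 and -0.04 in the culture minus naive WBC.

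Trp53 lay at the end of a raised stretch of chromosome 11. The median of the other 208 windows of chromosome 11 was 0.16 in CTC minus WBC, with 115 of them called higher and 15 lower, and the Trp53 window exceeded 42.8% of them. Bins from -2.99 to -0.4 Mb stood between 0.23 and 0.39, and the gene's own bin at -0.0093. A run of 11 windows over chr11:69443169-75383037 (5.94 Mb) starts with the bin of Trp53. It was called lower in the CTC minus WBC local difference, with a median of -0.21. Against its own flanks the Trp53 window stood at -0.06 to 0.17 in CTC and at 0.14 to 0.30 in WBC (log2, 5 samples). In CTC the bin of Trp53 was lower than the bin before it (0.969 against 1.28), and near the autosomal median. Gene density was near its highest here, at 55.2 protein-coding genes per Mb. The 438 densest windows start at 20.4 per Mb, far below that of Trp53. Their median local difference was 0.0035, and 16.4% of them were called lower, beside 15.3% of all windows. Any part of gene density in the Trp53 value was not tested.

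The lowered genes lay within long stretches. Mdm2 and Cdk4 fell in a single run of 65 called windows, chr10:92323902-130694993 (38.4 Mb, median -0.40), which also holds E2f7 and Cdk2. Rb1 fell in a run of 124 windows, chr14:54085779-124902244 (70.8 Mb, median -0.34), and 206 of the 209 other windows of chromosome 14 were called lower. Rb1 itself was above 77.5% of them. Mdm4 fell in a raised run of 34 windows, chr1:118066333-137164576 (19.1 Mb, median 0.27). Mdm2 and Cdk4 thus share a stretch, and Mdm2, Mdm4, Rb1 and Cdk4 did not pass the local test.

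**Figure D3:**
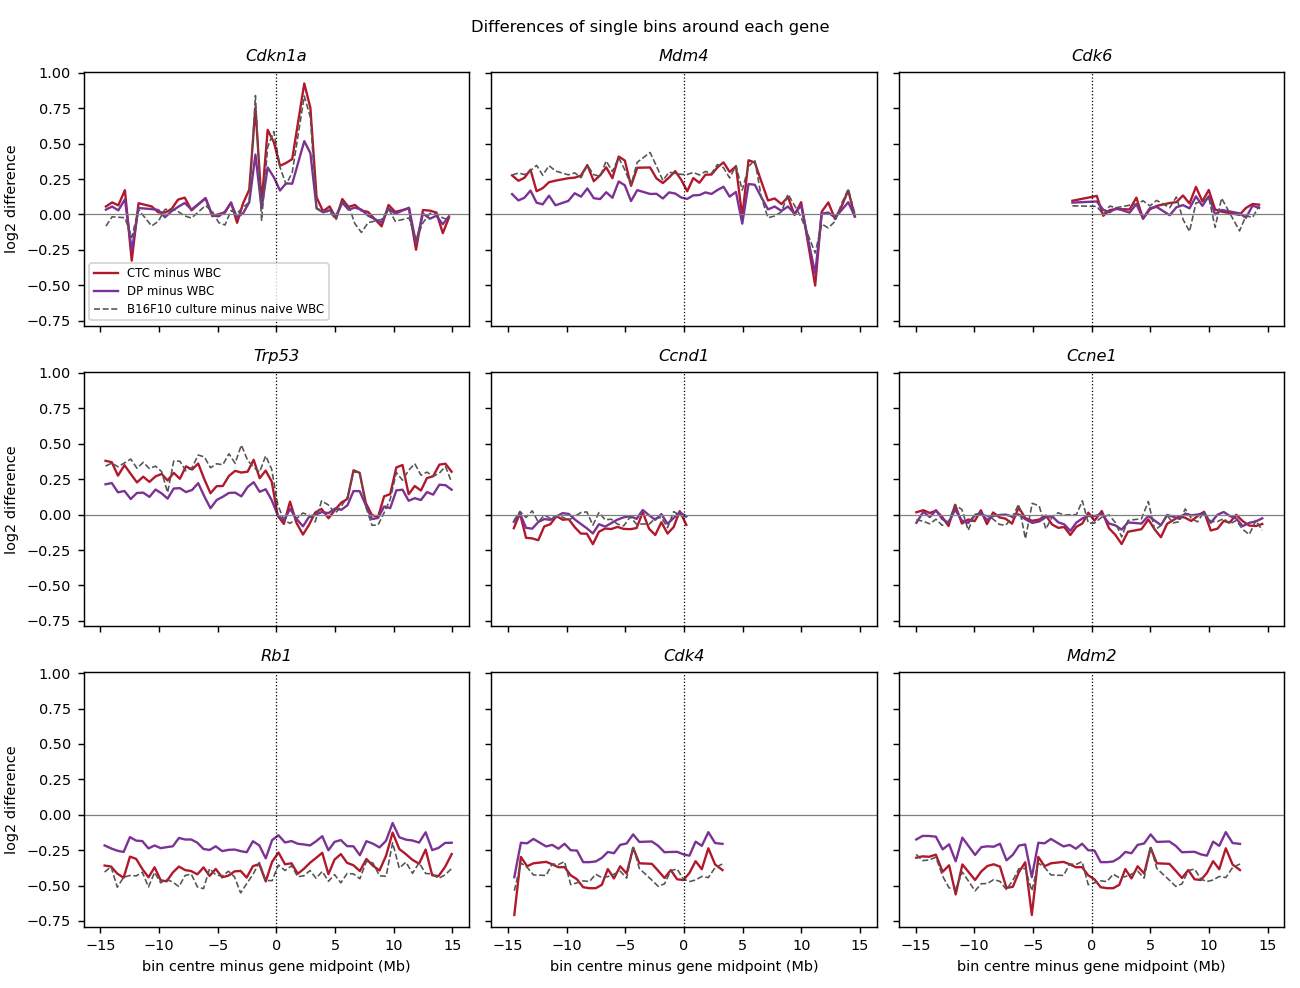
Log2 difference (vertical axis) of single bins within 15 Mb of each gene's midpoint (horizontal axis, Mb) for CTC minus WBC, DP minus WBC and the culture minus naive WBC. Cdkn1a sits in a raised stretch with higher bins on each side, Trp53 at the edge of a raised stretch, and Rb1, Cdk4 and Mdm2 in lowered stretches that run across the panel. The gap left of Cdk6 is the start of the chromosome.

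The culture and naive WBC are 1 sample each, so their values carry no test. Culture minus naive WBC differences were 0.46 for Cdkn1a, 0.28 for Mdm4, 0.12 for Trp53, 0.06 for Cdk6, -0.01 for Ccnd1, -0.05 for Ccne1, -0.40 for Rb1, -0.44 for Cdk4 and -0.48 for Mdm2. All 22 culture cells stood below the lowest of the 67 WBC at Mdm2, Cdk4 and Rb1. At Mdm4, 21 of the 22 stood above the highest WBC, and at Cdkn1a 4 did. CTC minus culture differences ran from -0.07 at Ccnd1 to 0.115 at Cdkn1a.

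DP cells were next set against the WBC found beside them in those 5 samples. The same 6 members were called, in the same directions as in CTC, by smaller fitted differences, and the comparisons share their WBC. Of all windows 42.8% were called, 16.3% higher and 26.5% lower. Cdkn1a differed by 0.26 ± 0.06 (limma adjusted p = 0.00208), Mdm4 by 0.13 ± 0.04 (limma adjusted p = 0.0212) and Cdk6 by 0.09 ± 0.03 (limma adjusted p = 0.0141). Mdm2 differed by -0.28 ± 0.05 (limma adjusted p = 0.000589), Cdk4 by -0.28 ± 0.04 (limma adjusted p = 0.000449) and Rb1 by -0.17 ± 0.04 (limma adjusted p = 0.00262). In lung cells alone (2 samples) 0 of 9 members were called (Cdkn1a 0.06, Cdk4 -0.0050), where 7 of all 4376 windows were. In less noisy cells (3 samples) 2 of 9 members were called, where 985 of all windows were. With the gene's bin alone, Mdm4 and Cdk6 lost the call (limma adjusted p = 0.0817 and 0.0978). With the autosomal mean as the divisor, Rb1 lost it at -0.08 (limma adjusted p = 0.0656), while Trp53 at 0.11 and Ccnd1 at 0.09 gained it (limma adjusted p = 0.00811 and 0.0385). Without C3R, Mdm4 (limma adjusted p = 0.125) and Cdk6 (limma adjusted p = 0.0599) lost the call, and without C2R Mdm4 did (limma adjusted p = 0.101). Trp53 (0.02), Ccnd1 (0.0027) and Ccne1 (-0.0064) did not pass. In the local difference 2 of 9 were called, again Cdkn1a at 0.20 and Trp53 at -0.10 (limma adjusted p = 0.00984 and 0.0301), where 9.3% of windows were called, 3.84% higher and 5.46% lower. Those local calls were lost without C1L, C2R or C3R, when 0 of 9 members passed, and without C1N 1 did.

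DP samples differed among themselves, with an SD over samples of 0.0847 at Mdm2, against 0.0166 in CTC. Mdm2 averaged 0.760, 0.896, 0.872, 0.981, 0.761, 0.734, 0.871, 0.746 and 0.860 in DP of C1L, C1N, C1R, C2N, C2R, C3R, P1, P2 and P4. Cdkn1a averaged 1.20, 0.942, 1.01, 0.966, 1.07, 1.23, 1.11, 1.27 and 1.10 in the same order. Samples low at Mdm2, such as C3R and P2, were high at Cdkn1a. C2N and C1N had the highest means at Mdm2 and the lowest at Cdkn1a. In cells, 244 of 450 DP at Mdm2, 227 at Rb1 and 208 at Cdk4 stood below the lowest WBC, and 152 at Cdkn1a and 150 at Mdm4 above the highest.

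Set directly against DP, CTC were lower at Mdm2 by -0.19 ± 0.05, at Cdk4 by -0.17 ± 0.04 and at Rb1 by -0.14 ± 0.04, and higher at Cdkn1a by 0.23 ± 0.06 (limma adjusted p = 0.0119, 0.00933, 0.0162 and 0.0104). These are 4 of 9 members (1 higher and 3 lower), where 32.2% of windows were called, 13.1% higher and 19.1% lower. Mdm4 did not pass at 0.11 ± 0.04 (limma adjusted p = 0.0533), and the other 4 lay between -0.02 and 0.04. In blood cells alone 0 of 4376 windows passed this limma test (743 at an unadjusted p under 0.05), with differences of 0.12 at Cdkn1a, -0.09 at Mdm2, -0.07 at Rb1 and -0.06 at Cdk4. Without C1R 0 of the 9 members passed by limma, with 323 windows called in all. Without C2R Rb1 lost the call (limma adjusted p = 0.0558, 695 windows), and without C1L Mdm4 gained it (limma adjusted p = 0.0188).

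The ratios of DP cells differed with their coverage level. Dividing each cell's autosomal median by that of naive WBC and rounding put 177 DP cells near 1.8, 219 near 3.7, 29 near 5.6, 9 near 7.7 and 16 near 9.6, whereas all 67 WBC stood near 1.8 and all 43 CTC near 3.7. Levels and ratios come from the same table, so the following values are a description with no test. Mdm2 averaged 0.967 ± 0.090 near 1.8, 0.704 ± 0.051 near 3.7, 0.782 ± 0.073 near 5.6, 0.834 ± 0.061 near 7.7 and 0.729 ± 0.082 near 9.6 (SD between cells). Cdkn1a averaged 0.917 ± 0.094, 1.27 ± 0.13, 1.12 ± 0.08, 1.11 ± 0.11 and 1.18 ± 0.07 at the 5 levels from low to high. Rb1 averaged 1.04, 0.797, 0.872, 0.922 and 0.809, Cdk4 1.05, 0.810, 0.870, 0.930 and 0.833, and Mdm4 0.973, 1.15, 1.09, 1.07 and 1.16.

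DP cells near 1.8 thus had mean ratios near those of WBC at these 5 genes, and those near 3.7 had means near those of CTC. At the levels near 5.6 and 7.7 all 5 genes stood between the values near 1.8 and those near 3.7. The level means stayed close at Trp53 (1.09 to 1.13), Cdk6 (0.993 to 1.02), Ccnd1 (1.00 to 1.06) or Ccne1 (0.871 to 0.925). Within a level, sample means of Mdm2 ran from 0.922 to 0.997 near 1.8 (9 samples) and from 0.663 to 0.744 near 3.7 (8 samples), and those of Cdkn1a from 0.848 to 0.966 and from 1.15 to 1.34. As alternatives added after the data were seen, the class test was repeated with DP of a single level. With DP near 3.7 the DP minus WBC differences were 0.45 at Cdkn1a, 0.24 at Mdm4, -0.32 at Rb1, -0.43 at Cdk4 and -0.45 at Mdm2, and 0 windows passed in CTC minus DP by limma (147 at an unadjusted p under 0.05). With DP near 1.8, 0 windows passed in DP minus WBC by limma (309 at an unadjusted p under 0.05). The DP cells were chosen by level from the same table, so 0 calls does not show that the classes are equal.

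**Figure D4:**
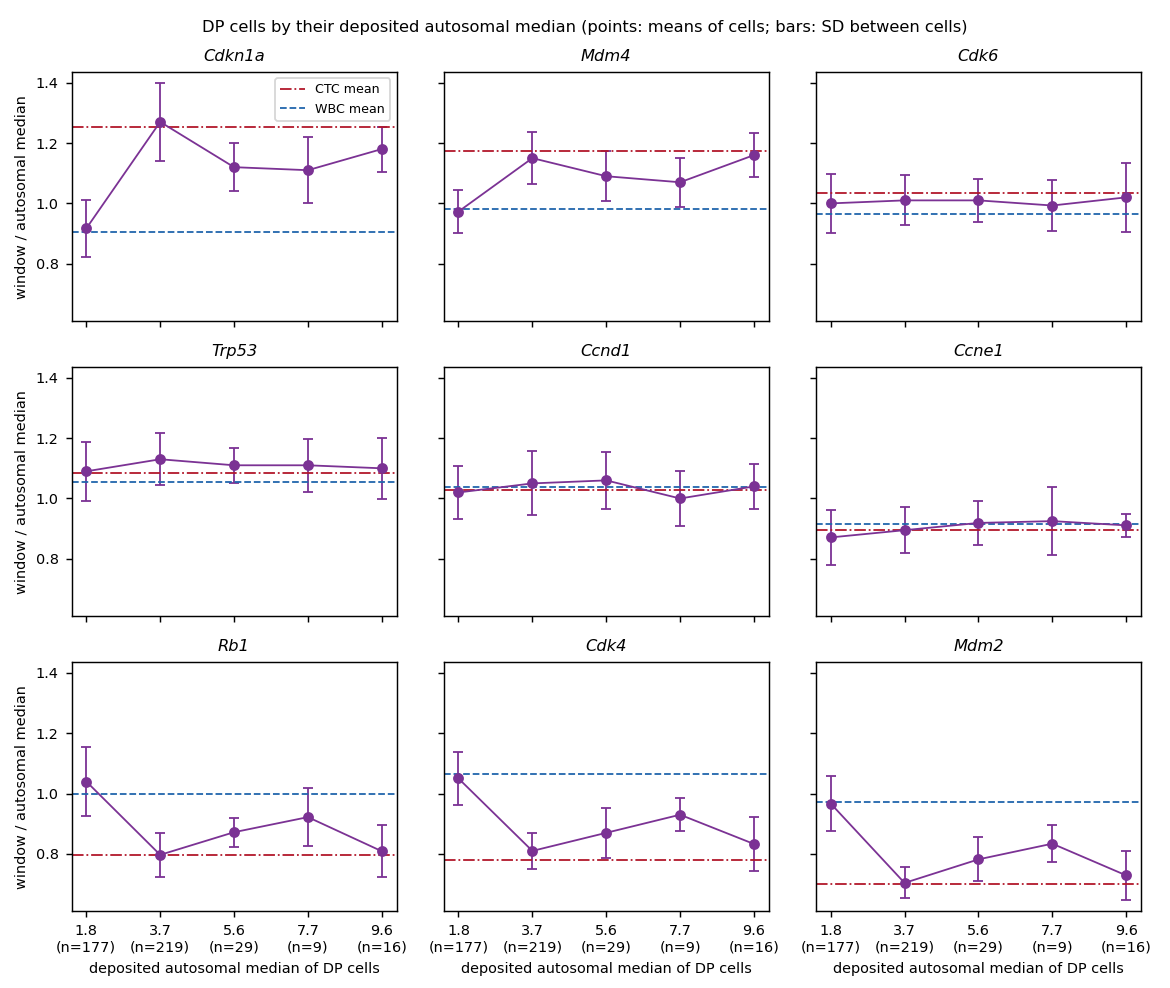
Mean window ratio of DP cells (vertical axis) by the level of their deposited autosomal median (horizontal axis, cell numbers below), with SD between cells; lines mark the means of CTC and WBC cells. At Cdkn1a, Mdm4, Rb1, Cdk4 and Mdm2 the cells near 1.8 lie by the WBC line, those near 3.7 by the CTC line, and the levels near 5.6 and 7.7 between them.

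To compare the spread between cells, the SD over cells of the log2 ratio was computed in each class and sample, and its log2 was compared between DP and WBC. Spread was larger in DP at 3 of 9 members, where 43.5% of windows were called, all of them larger in DP. Mdm2 had SDs of 0.212, 0.190, 0.259, 0.253 and 0.156 in DP of C1L, C1N, C1R, C2R and C3R, against 0.0256, 0.176, 0.138, 0.0917 and 0.0624 in WBC. The WBC value of C1L rests on 3 cells. The fitted ratio of SDs was 2.58 for Mdm2, 2.52 for Rb1 and 2.0 for Mdm4 (limma adjusted p = 0.00954, 0.00231 and 0.0198). The median log2 difference in SD was 0.714 over the 9 members and 0.76 over all windows. DP had 36 to 81 cells per sample here and WBC 3 to 13, and the part of cell number was not tested. Without C1R or C3R, Mdm4 missed the threshold (limma adjusted p = 0.0535 and 0.0506), and without C2R 1192 windows passed. The other 6 had ratios of 1.16 to 1.84 and did not pass, Cdkn1a among them (1.64, limma adjusted p = 0.0561). With DP of a single coverage level, near 1.8 or near 3.7, 0 of the 9 members passed by limma, although 424 windows passed near 3.7.

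Over all cells of a class, the coefficient of variation at Mdm2 was 9.47% in CTC, 17.5% in DP and 8.97% in WBC, and at Cdkn1a 7.38% in CTC, 17.8% in DP and 9.94% in WBC. Trp53 was the steadiest member in DP with 8.34%, against 6.02% in WBC. Its log2 SD over DP cells was 0.109, and 2.17% of windows had a lower one. Over 34 pairs of members on different chromosomes the Pearson correlation across DP cells of a level had a median of 0.05 near 1.8 (177 cells, -0.24 to 0.40) and -0.0065 near 3.7 (219 cells, -0.28 to 0.28). Mdm2 and Cdk4, on 1 chromosome, had 0.40 near 1.8 and 0.43 near 3.7. Ccnd1 and Ccne1, also on 1 chromosome, had -0.10 near 1.8 and 0.31 near 3.7. These points share library and depth, and no p is given.

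Lung and blood were set against each other within samples for DP cells, to ask whether these levels differ with tissue. By limma 0 of 4376 windows passed, with 430 at an unadjusted p under 0.05, and so 0 of 9 members did (0.0% called). In 4 of 5 samples Mdm2, Cdk4 and Rb1 were at higher values and Cdkn1a and Mdm4 at lower values in lung, and P1 went the other way. Mdm2 had mean ratios of 0.943, 0.942, 0.960, 0.897 and 0.811 in lung of C1L, C1N, C1R, C2R and P1, against 0.721, 0.867, 0.741, 0.674 and 0.932 in blood. Cdkn1a had 0.918, 0.822, 0.891, 0.940 and 1.18 in lung, against 1.26, 1.02, 1.19, 1.16 and 1.03 in blood. Among these 5 samples, lung cells of P1 had the highest lung ratio of Cdkn1a and the lowest of Mdm2, while in P2, whose 35 DP cells here are all of lung, they had 1.27 and 0.746.

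The fitted lung minus blood differences were 0.22 ± 0.10 at Mdm2, 0.19 ± 0.09 at Cdk4, 0.17 ± 0.07 at Rb1, -0.12 ± 0.06 at Mdm4 and -0.25 ± 0.10 at Cdkn1a, each with a limma adjusted p of 0.242. Without P1, 2042 windows and these 5 members passed. The level makeup went with it. Of DP cells near 1.8 there were 6 of 7, 14 of 14, 33 of 34, 19 of 25 and 13 of 47 in lung of the 5 samples, against 4 of 33, 10 of 22, 2 of 23, 0 of 39 and 35 of 46 in blood. Its part in the tissue difference was not tested. In C2N, all 15 DP cells were of lung and near 1.8, and in P2, 25 of 35 lung cells were near 3.7. CTC had at least 3 cells in both tissues in C1R and C2R only, and were not tested. Cdkn1a had 1.25 in lung and 1.26 in blood of C1R, and 1.25 in lung and 1.24 in blood of C2R. Mdm2 had 0.755 in lung and 0.666 in blood of C1R, and 0.704 in lung and 0.706 in blood of C2R. Rb1 had 0.833 in lung and 0.781 in blood of C1R, and Cdk4 0.739 in lung and 0.803 in blood of C2R. The lung values of C1R rest on 4 cells.

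**Figure D5:**
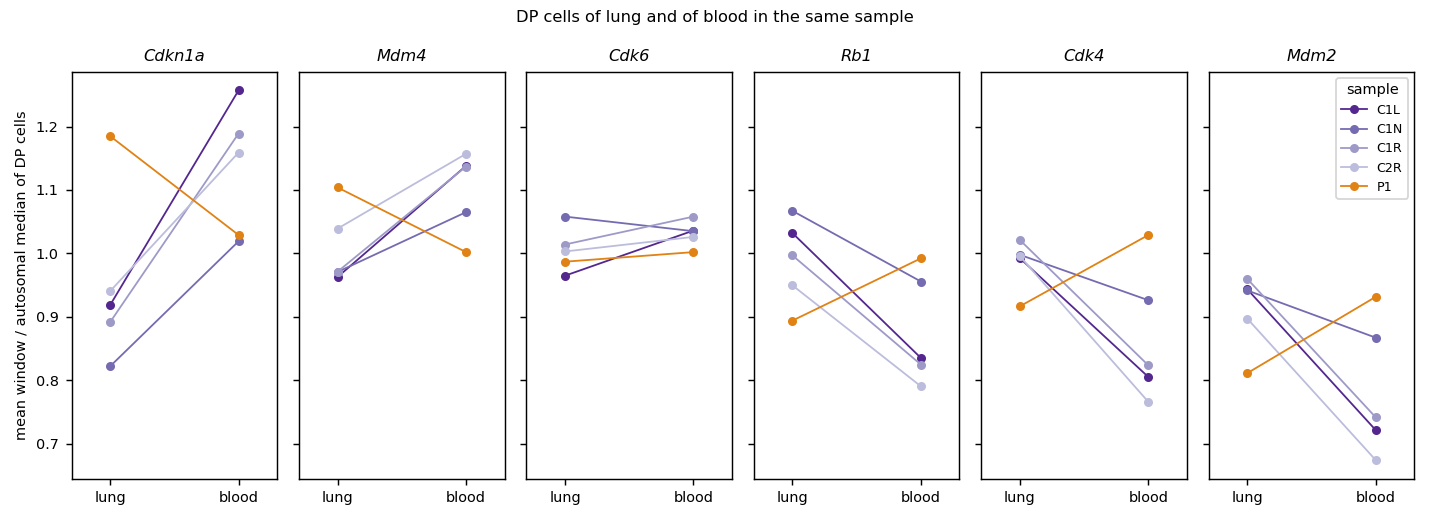
Mean window ratio of DP cells (vertical axis) in lung and blood of the same sample at 6 genes; each line is a sample. In 4 samples Cdkn1a and Mdm4 are lower and Rb1, Cdk4 and Mdm2 higher in lung, and P1 runs the opposite way.

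The control classes differed at Trp53. Trp53 averaged 1.21 in PltLike and 1.18 in Duplike cells, against 1.05 in the culture, 0.973 in CDP and 0.959 in naive WBC, with SDs between cells of 0.0548 to 0.0968. DP sample means ran from 1.03 in C1N to 1.16 in C3R and P2, all above naive WBC. Host WBC averaged 1.05 ± 0.05 (SD, 6 samples). Over cells, the mean log2 ratio of host WBC was 0.14 above that of naive WBC, a difference above that of 98.8% of windows. In the 438 densest windows the median ratio was 0.966 in PltLike, 0.969 in Duplike, 0.938 in the culture, 0.922 in CDP and 0.95 in naive WBC. Over all windows it was 0.982, 0.981, 0.984, 0.984 and 0.996 in the same order. Any part of gene density in the Trp53 levels of these classes was not tested. Each control is 1 sample, so class and sample cannot be told apart.

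At the genes that separated CTC from WBC, the controls took up several places. PltLike cells had 0.701 at Mdm2, 0.850 at Cdk4, 0.834 at Rb1, 1.11 at Mdm4 and 1.32 at Cdkn1a, against CTC means of 0.700, 0.785, 0.804, 1.16 and 1.26. CDP cells, with autosomal medians near 5.65, had 0.764 at Mdm2, 0.827 at Cdk4, 0.831 at Rb1, 1.14 at Mdm4 and 1.03 at Cdkn1a, between CTC and WBC at each. Duplike cells had 0.765, 0.892, 0.839, 1.06 and 1.20 at the same genes. Their autosomal medians had a median of 5.47, but the cells were spread. The SD of deposited values over the 9 genes was 0.84 to 1.21 in Duplike and 0.18 to 0.48 in CDP. Ccnd1 ran from 1.01 to 1.09 and Ccne1 from 0.844 to 0.947 over all 8 classes. The low level of Ccne1 came from its last bin, at 0.568 in CTC and 0.564 in WBC, with the gene's own bin at 1.05 in CTC and 1.12 in WBC.

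Ordered by mean ratio in CTC, the members ran Cdkn1a (1.26), Mdm4 (1.16), Trp53 (1.11), Cdk6 (1.04), Ccnd1 (1.03), Ccne1 (0.897), Rb1 (0.804), Cdk4 (0.785) and Mdm2 (0.700). Neighbours in this order had overlapping ranges over the 5 samples, except Cdk4 and Mdm2. In WBC the same genes lay between 0.904 (Cdkn1a) and 1.06 (Cdk4), with Cdkn1a at the bottom of that order and the top of the other.

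Beyond the 9 members, 52 further genes of both pathways in 48 windows were counted in 5 lists. In CTC minus WBC 13 genes were higher, 18 lower and 21 did not pass. By window, 22.9% of the 48 were higher and 37.5% lower, beside 22.0% and 32.4% of all windows. Of 11 p53 regulators and damage kinases, 3 were higher and 5 lower. Ppm1d, a phosphatase that turns off the p53 response, was higher by 0.34, Trp53bp1, a DNA break response factor, by 0.09, and Atr, a replication stress kinase, by 0.09. Trp73, a p53 relative, was lower by -0.42, Rchy1, a ubiquitin ligase of p53, by -0.40, and the checkpoint kinase Chek2 by -0.39. Of 15 p53 targets, 4 were higher and 5 lower, with Gadd45a (0.58), Tigar (0.52) and Zmat3 (0.29) at the top and Sfn (-0.40), Pmaip1 (-0.34) and Sesn2 (-0.33) at the bottom.

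Of 12 pocket proteins and E2F factors, 2 were higher, E2f5 (0.32) and Tfdp2 (0.09), and 5 lower, led by E2f7 (-0.48), E2f2 (-0.39) and E2f4 (-0.33). Of 8 cyclins and cyclin-dependent kinases, 3 were higher, namely Ccnd2 (0.52), Ccna2 (0.35) and Ccnd3 (0.17), and 2 lower, Cdk2 (-0.32) and Cdk1 (-0.15). Of 6 CDK inhibitors in 5 windows, 1 was higher, Cdkn1b (0.51), and 1 lower, Cdkn1c (-0.09). Of the D cyclins, Ccnd2 and Ccnd3 were called higher and Ccnd1 did not pass, and no test was run between them. Ccnd2 and Tigar share a window, as do Atr and Tfdp2, and the counts by gene take each of them separately. Among the named genes, Gadd45a, Tigar, Ccnd2 and Cdkn1b lie on chromosome 6, whose median log2 level was 0.56 in CTC. Trp73, Sfn, Sesn2 and E2f2 lie on chromosome 4. Values of genes on a shared chromosome may not be independent. In DP minus WBC the 52 genes gave 10 higher and 12 lower, and in CTC minus DP 8 higher and 10 lower. By window, 18.8% were higher and 25.0% lower in DP minus WBC, beside 16.3% and 26.5% of all windows. In CTC minus DP 14.6% were higher and 20.8% lower, beside 13.1% and 19.1%. Both are close to the shares of all windows.

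Over the 15 class-by-sample means, the listed gene on another chromosome most like Mdm2 was Pmaip1 (Pearson r = 0.97), like Cdk4 Chek2 (0.97), like Rb1 Rchy1 (0.97), like Cdkn1a Gadd45a (0.96) and like Mdm4 Cdkn1b (0.95). The other members had lower values, with 0.75 for Ccnd1 and Apaf1, 0.75 for Cdk6 and Ppm1d, 0.68 for Trp53 and Apaf1, and 0.60 for Ccne1 and Ccnb1. Each value is the highest of 46 to 52 listed genes and takes in the class differences given above. These values describe how the class means fall together across genes; the points share 5 samples and 3 classes, and no p is given.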

How the data were processed

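Single cells were amplified by MALBAC, a whole-genome amplification, per the labels' protocols. The deposited values are a normalised coverage signal of 4880 bins (median 538 kb) in 648 cells, made by the authors on mm10. The submitters' processing notes name BWA, Trim Galore, SAMtools, Picard, featureCounts and HISAT2 with no order, and the scaling, the top value at which a cell's values stop and the depth are not given in the sources used here. Of 4424 autosomal bins, 304 were dropped because 1% of cells or more stood at exactly 10 there, the top value of most cells, as were 34 of X, and 166 Y bins were not tested.

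Window ratios were taken as log2 without a pseudocount and averaged per class and sample. limma 3.58.1 (lmFit, eBayes; R 4.3.3, Python 3.11.15, numpy 2.4.6, pandas 2.3.3) was fitted over 4376 windows, which share bins with their neighbours, with the sample as a block, because classes and tissues carry the same sample label. The class fit used C1L, C1N, C1R, C2R and C3R, and the tissue fit C1L, C1N, C1R, C2R and P1. The fit was tested on simulated data.

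All 9 members were named, with up to 3 listed genes per direction by size among those past the test, and the likest listed gene on another chromosome. Members and gene lists were chosen with earlier results of these data known. Alternatives were a single bin, bins at 10 kept, pseudocounts of 0.1 and 0.25, the autosomal mean, the median over cells, other minimum cell numbers, less noisy cells, cells of 1 tissue, a shorter flank, no block, and each sample left out. DP cells of 1 coverage level, and leaving out bins by each cell's own top value, were added after the data were seen. The highest correlation between any 2 cells was 0.984, so no cell was counted as a duplicate.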

Additional observations from a re-analysis of the deposited data

How the results depend on the processing

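Of the results for single genes under the alternatives, 542 kept direction and side of the threshold, 69 lost the call, 16 gained it and 32 changed sign. These counts hold repeats of the same fit. In CTC minus WBC a minimum of 1 cell gave the main fit again (2381 windows). A minimum of 5 cells gave the fit without C1L (2270 windows). The cause of these changes was not tested, and some alternatives also had fewer samples or cells. Windows called in CTC minus WBC (2381) stayed within 1.5 times under every alternative run, with 6 members each time a sample was left out and 9 with the autosomal mean. The paired fit rests on the shared sample label. With no replicate block, DP minus WBC local calls were 200 windows and 1 member, and no other count moved by over 1.5 times (CTC minus WBC 2265 windows, DP minus WBC 1820, CTC minus DP 1262).

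DP minus WBC called 1874 windows and 6 members, against 2909 windows with the autosomal mean, 985 and 2 members in less noisy cells, 7 and 0 in lung, and 0 and 0 with DP near 1.8. CTC minus DP called 1409 and 4 members, against 0 and 0 with the median over cells, in blood and with DP near 3.7, 510 and 2 in less noisy cells, and 2250 windows with DP near 1.8. Spread called 1905 and 3 members, against 993 with a single bin, 788 and 1 with the autosomal mean, 5 members in less noisy cells, 1133 in blood, 137 and 0 in lung, 424 and 0 with DP near 3.7, and 0 and 0 with DP near 1.8. The CTC minus WBC local difference called 1242 and 2 members, against 1900 with bins at 10 kept, 485 in lung, and 4 members in blood or with a flank of 10 bins. The DP minus WBC local difference called 407 and 2 members, against 192 with a single bin, 1133 with bins at 10 kept, 246 with the median over cells, 174 and 0 with at least 5 cells, 0 and 0 in less noisy cells, 24 and 0 in lung, 229 and 1 with a flank of 10 bins, 1239 with DP near 3.7, and 0 and 0 with DP near 1.8.

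With a sample left out, windows called ran from 2156 to 2289 in CTC minus WBC (6 members), 1634 to 1879 in DP minus WBC (4 to 6), 323 to 1425 in CTC minus DP (0 to 5), 0 to 2042 in lung minus blood (0 to 5), 1192 to 1904 for spread (2 to 4), 857 to 1247 for the CTC minus WBC local difference (2 to 3) and 78 to 435 for the DP minus WBC local difference (0 to 2).

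Sign changes in CTC minus WBC were Trp53 at -0.0093 with a single bin and -0.054 in lung, Cdk6 at -0.048 in lung, Ccnd1 at 0.090 with the autosomal mean and 0.022 without C1N, and Ccne1 at 0.10 with the autosomal mean, 0.0042 with the median over cells, 0.017 in lung, 0.028 without C1N and 0.019 without C1R. The lowest values with a sample left out were -0.044 for Ccnd1 and -0.043 for Ccne1, both without C1L. In DP minus WBC they were Trp53 at -0.0038 with a single bin and -0.0054 with DP near 1.8, Cdk6 at -0.022 in lung, and Ccnd1 at -0.013 with a single bin, -0.00070 with at least 5 cells, -0.0070 in blood, -0.00070 without C1L, -0.0089 without C1R, -0.013 without C2R and -0.019 with DP near 1.8, its highest with a sample left out being 0.026. Ccne1 stood at 0.084 with the autosomal mean, 0.030 with the median over cells, 0.012 in less noisy cells, 0.028 without C1R (lowest -0.028, without C1L) and 0.011 with DP near 3.7. With DP near 1.8, Mdm4 stood at -0.017, Cdkn1a at -0.0096 and Rb1 at 0.052. In CTC minus DP with DP near 3.7, Mdm4 stood at -0.00088 and Rb1 at 0.0065. In the DP minus WBC local difference, Trp53 stood at 0.017 in lung and Cdkn1a at -0.023 with DP near 1.8.

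Leaving out bins by each cell's own top value, added after the data were seen, changed no call at the members (2383 windows in CTC minus WBC, 1873 in DP minus WBC). Depth is unknown, so no counting interval is given. CTC and WBC of C1L are 3 cells each, lung alone leaves 2 samples, and the controls are 1 sample each.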
